A study of Mus musculus with 7 samples.

Results

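The 3 wild-type small RNA libraries of a 7-library mouse series are described here, without reference to the other genotype. They were chosen by their Wild-type genotype label alone; the other 4 libraries, labelled TAp73 Knock-out, are not used here. The mice were adult C57BL/6J, the tissue was the lateral ventricles together with the choroid plexus, and the labels give no transgene or treatment. Whether every library stands for its own animal is not stated, so the spread given below may be partly technical. The labels give no sex and no age in numbers. The dissected tissue is mixed: the ventricle wall carries ependymal cells with motile cilia beside neural progenitors, glia, neurons and vessels, and the choroid plexus is the secretory epithelium that makes cerebrospinal fluid. Because the tissue was sequenced in bulk, fewer cells of a type and less of a miRNA per cell cannot be told apart.

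MicroRNAs (miRNAs) are short RNAs cut from hairpin precursors. A hairpin can release a mature miRNA from its 5p arm, its 3p arm or both, and the arm that is loaded into an Argonaute protein guides the silencing of messenger RNAs. Target choice rests mainly on the seed, bases 2 to 8 of the mature miRNA, so that miRNAs with the same seed form families with overlapping targets.

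Levels are given as reads per 1000000 mouse miRNA reads of the same library (CPM). Wild types 1, 2 and 3 held 2697778, 2211619 and 3647102 such reads, which were 98.8% ± 0.088 of all assigned reads (SD, n = 3). The upper limit that a count of 0 allows, 3 reads, corresponded to 1.11, 1.36 and 0.823 CPM, and covers counting error only. CPM was not corrected for length. Adapter ligation in small RNA libraries is known to favour some ends over others, and read shares are not molar shares. All SDs below are over the 3 libraries. With 1 group there was no test between groups, and an order between miRNAs is described as held only where each of the 3 libraries showed it.

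The sequences below belong to the largest seed families and show which abundant miRNAs share a seed. Each is the mature RefSeq sequence (build GRCm38.p6), written 5′ to 3′ with the seed in capitals.
miR-127-3p: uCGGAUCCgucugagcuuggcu
miR-181a-5p: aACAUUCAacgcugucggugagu
miR-181b-5p: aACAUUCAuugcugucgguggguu
miR-99b-5p: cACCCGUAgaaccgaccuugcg
miR-100-5p: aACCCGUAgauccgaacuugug
miR-99a-5p: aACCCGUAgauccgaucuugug
miR-26a-5p: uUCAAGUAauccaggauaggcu
miR-30a-5p: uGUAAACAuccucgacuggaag
miR-30e-5p: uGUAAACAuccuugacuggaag
miR-30c-5p: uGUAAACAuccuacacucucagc
miR-125b-5p: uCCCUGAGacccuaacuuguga
miR-125a-5p: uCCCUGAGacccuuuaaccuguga
miR-22-3p: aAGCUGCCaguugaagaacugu
let-7f-5p: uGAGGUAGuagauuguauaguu
let-7c-5p: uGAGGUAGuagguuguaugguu
let-7a-5p: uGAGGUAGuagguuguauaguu
miR-27b-3p: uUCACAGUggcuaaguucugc
miR-9-5p: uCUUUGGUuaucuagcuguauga

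A small number of miRNAs supplied most reads. miR-127-3p, which is encoded opposite the imprinted gene Rtl1, took 21.0% ± 1.09 of mouse miRNA reads, and miR-181a-5p, a broadly expressed miRNA that is abundant in brain and lymphocytes, took 11.2% ± 0.337. The 10 most abundant mature miRNAs together held 63.5% ± 0.950. Of 1914 mature miRNA names in the tables, 1067 had a read in at least 1 library and 692 in each library. At least 1 CPM in each library was reached by 565 (29.5%), at least 10 CPM by 382, at least 100 CPM by 190, at least 1000 CPM by 59 and at least 10000 CPM by 17.

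Ranked by mean level, 6 miRNAs held 50% of the reads, 44 held 90% and 190 held 99%. The sixth was miR-30a-5p at 36639 ± 6934 CPM, and miR-125b-5p at 35374 ± 3544 CPM came just after. The last inside the 90% limit was the neuronal miR-153-3p at 2793 ± 538.7 CPM, followed by miR-21a-5p, which is induced in many injury responses, at 2682 ± 420.4 CPM. At the 1 CPM limit, miR-107-5p was just inside with 5, 8 and 4 reads in wild types 1 to 3, and miR-690 with 3, 12 and 14 reads. Just outside were miR-31-3p with 14, 2 and 11 reads and miR-7240-5p with 5, 2 and 8 reads. miRNAs near that limit rested on few reads.

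miR-127-3p stood at 208111, 199698 and 221322 CPM in wild types 1, 2 and 3. miR-181a-5p stood at 109145, 111166 and 115730 CPM. Both held their place in each library, with no overlap between them or with the miRNA ranked next. miR-99b-5p, of the ancient miR-99/100 family, was at 76407, 60463 and 60699 CPM, and miR-26a-5p, which lies in genes of the Ctdsp phosphatase family, at 51524, 61377 and 48931 CPM. These last values overlapped, and miR-26a-5p was the higher of the pair in wild type 2.

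The next 4 miRNAs had no fixed order. miR-100-5p was at 42906, 30446 and 37555 CPM, miR-30a-5p at 43076, 37545 and 29296 CPM, miR-125b-5p at 31289, 37628 and 37205 CPM, and miR-22-3p at 33659, 40100 and 30172 CPM. Below them, miR-27b-3p (28350, 29421 and 26519 CPM) was under miR-22-3p and above miR-9-5p in each library. miR-9-5p, a miRNA of neural progenitors and their progeny, was at 21033, 25654 and 19319 CPM. Of the 10 neighbouring pairs among the first 11 ranks, 5 had the same order in all 3 libraries. The first 10 were also the first 10 in wild types 1 and 2, and 9 of them were in wild type 3, where miR-143-3p, a miRNA of smooth muscle and fibroblasts, was higher than miR-9-5p.

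**Figure D1:**
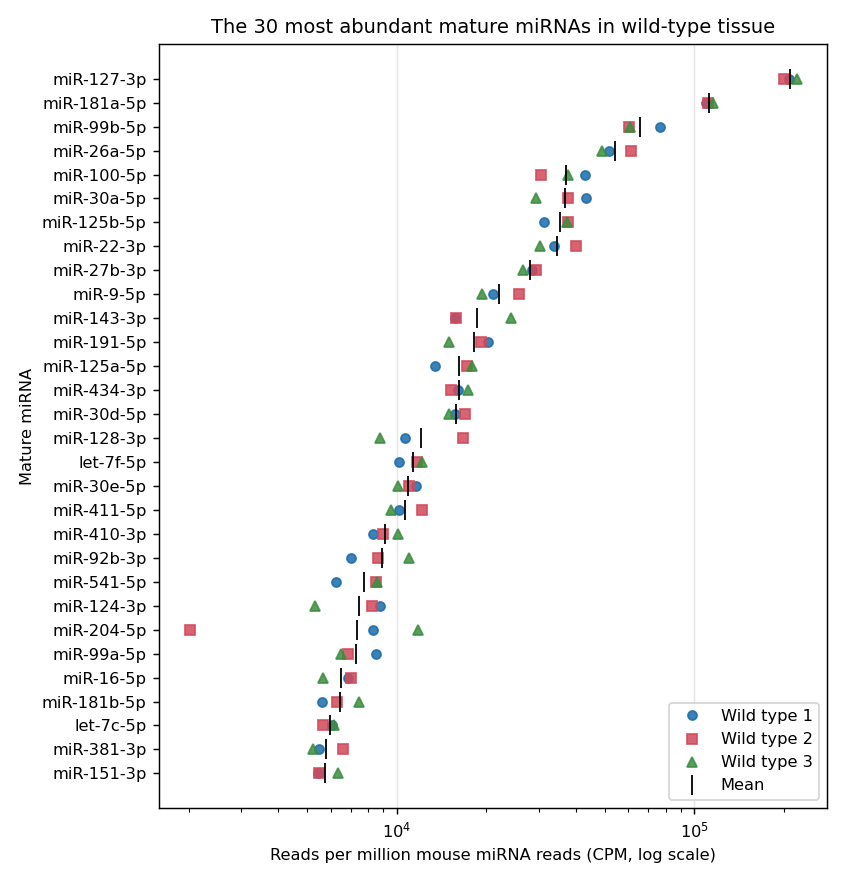
Level of each of the 30 most abundant mature miRNAs (horizontal axis, CPM on a log scale) in the 3 wild-type libraries, one symbol per library, with a tick at the mean. Most symbols of a miRNA lie close together, and miR-204-5p is the exception, at 2009 CPM in wild type 2 against 8311 and 11775 CPM in wild types 1 and 3.

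Between libraries the whole repertoire was similar. Across the 565 miRNAs of at least 1 CPM in each library, Pearson correlations of log2(CPM + 1) were 0.987 for wild types 1 and 2, 0.984 for 1 and 3 and 0.985 for 2 and 3. These are correlations across miRNAs, which are not independent replicates, and the libraries share tissue and protocol.

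Several abundant miRNAs come from more than 1 hairpin or lie inside other genes (GENCODE release M21, build GRCm38). miR-127-3p lies at chr12:109592888-109592909 on the plus strand, opposite an exon of Rtl1. miR-181a-5p is made from a hairpin at chr1:137966468-137966490, in an intron of the noncoding gene Gm4258, and from a second copy at chr2:38852741-38852763, opposite an intron of Nr6a1. miR-26a-5p comes from an intron of Ctdspl (chr9:119031811-119031832) and from a site that overlaps an exon of Ctdsp2 (chr10:126995543-126995564), both on the gene's own strand. miR-99b-5p (chr17:17830194-17830215) and miR-30a-5p (chr1:23272274-23272295) overlapped no annotated host gene. The counts do not separate the copies of a repeated miRNA.

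By position, reads were spread unevenly. miRNAs with several genomic copies held 28.3% ± 1.59 of the reads although they were 52 names. Those inside a gene only on the opposite strand held 23.1% ± 1.20, mainly through miR-127-3p. miRNAs outside annotated genes held 16.7% ± 1.15, those inside a protein-coding gene on its own strand 14.2% ± 0.178, and those inside a noncoding gene on its own strand 10.8% ± 0.516. The remaining 6.79% ± 0.422 belonged to 296 names without a match in the RefSeq sequence table.

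The imprinted domain between Dlk1 and Dio3 on chromosome 12, whose miRNAs are expressed from the maternal chromosome, was the largest single source. The 58 hairpins placed there gave 108 mature miRNAs, of which 79 reached 1 CPM in each library. Together they held 27.9% ± 1.17 of the reads (27.3%, 27.2% and 29.3% in wild types 1 to 3), or 6.95% without miR-127-3p. After miR-127-3p came miR-434-3p, from the same Rtl1-antisense group, at 16170 ± 1045 CPM, then miR-411-5p at 10646 ± 1370, miR-410-3p at 9142 ± 921.5, miR-541-5p at 7771 ± 1334 and miR-381-3p at 5772 ± 726.8 CPM. Of the 50 most abundant miRNAs, 8 came from this domain.

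Grouped by seed, the 1618 miRNAs with a sequence fell into 1352 families, and 473 of these had a mean of at least 1 CPM. Most of the 473 (367) had a single member. The 10 largest families held 72.5% ± 0.591 of the reads, and 3 of these 10 had a single member (miR-127-3p, miR-22-3p and miR-9-5p). Near-identical members, such as those of let-7, may have exchanged reads in the counting, which makes the family totals firmer than the split within a family.

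The miR-181 family, at 124693 ± 5094 CPM, was ranked after miR-127-3p. miR-181a-5p made up 89.9% ± 0.971 of it, miR-181b-5p 5.17% ± 0.555, and miR-181c-5p and miR-181d-5p the rest. The miR-99/100 family, 11.01% of the reads, held 127841, 97772 and 104721 CPM. Within it miR-99b-5p took 59.9% ± 1.94, miR-100-5p 33.5% ± 2.36 and miR-99a-5p 6.62% ± 0.425, and this order held in each library. The miR-125 family held 51841 ± 5987 CPM, with 68.3% ± 1.26 from miR-125b-5p and 31.1% ± 1.24 from miR-125a-5p. The miR-125a and miR-125b genes lie beside miR-99/100 and let-7 genes in the genome.

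The miR-26 family held 56146 ± 6249 CPM, 96.0% ± 0.959 of it from miR-26a-5p. The members of the miR-30 family that have a sequence held 53155 ± 8087 CPM. In that family miR-30a-5p took 68.7% ± 2.71, miR-30e-5p 20.7% ± 1.74 and miR-30c-5p 9.67% ± 0.566. miR-30d-5p (15858 ± 1060 CPM) and miR-30b-5p were not in the sequence table. With both added by name, a choice made after seeing the data, the miR-30 family came to 70105 ± 8840 CPM and stood above miR-26 on the mean, at 77720, 72184 and 60411 CPM against 53878, 63212 and 51348 CPM.

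The let-7 family, which is abundant in differentiated tissue, was the most evenly divided of the large families. It held 34131 ± 2034 CPM over 9 members of at least 1 CPM. let-7f-5p took 33.2% ± 1.28, let-7c-5p 17.5% ± 1.24, let-7a-5p 15.1% ± 0.449, let-7i-5p 11.4% ± 0.763 and let-7g-5p 10.97% ± 0.237. The miR-27 family, at 28494 ± 1469 CPM, was at the other end, with 98.6% ± 0.0777 from miR-27b-3p. Family totals of let-7 and miR-27 varied little (32054, 34220 and 36119 CPM for let-7; 28760, 29811 and 26910 CPM for miR-27).

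**Figure D2:**
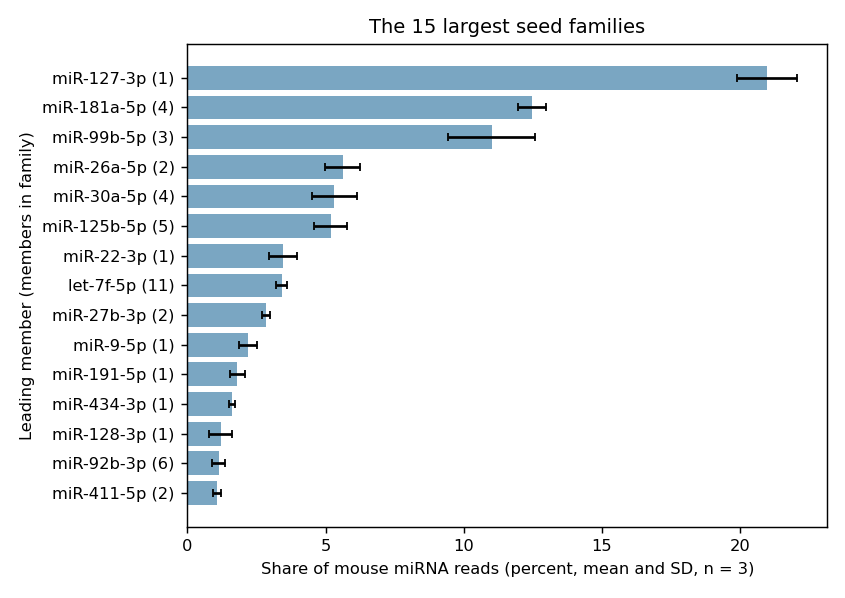
Share of mouse miRNA reads (horizontal axis, percent) in each of the 15 largest seed families of miRNAs with a sequence, named by the leading member with the number of members in parentheses; bars are means and whiskers SDs over the 3 libraries. The first 3 families reach 20.97%, 12.47% and 11.01%, the miR-30 bar leaves out miR-30b-5p and miR-30d-5p, and miR-143-3p (18614 CPM), which has no sequence in the table, is in no family.

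First base and length were taken over the miRNAs with a sequence, which held 93.2% of mouse miRNA reads, and shares of reads here are of that part. Reads of miRNAs that begin with U made up 61.8% ± 1.05, and A 26.7% ± 0.235, while C made up 10.7% ± 1.18 and G 0.842% ± 0.118. By name rather than by reads, U began 40.4% of the 1618 sequences, A 25.5% and G 13.0%. Among the 180 sequences of at least 100 CPM, 85 began with U (47.2%), 54 with A and 13 with G (7.22%), and miR-127-3p alone, which begins with U, held 21.0% of all mouse miRNA reads. Mature length in the reference was 22 bases for 68.5% ± 1.23 of these reads and 45.0% of the names. Read lengths themselves were not measured here.

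Arms were paired where their names differed only in 5p or 3p, which gave 244 hairpins of at least 10 CPM. Entries that join several names were left out. So were hairpins such as miR-181a, miR-125b and miR-128, where a copy number stands in the name of a single arm. The 5p arm held over 50% in each library in 108 of the 244 (44.3%, exact binomial 95% interval 37.9% to 50.7%), and the 3p arm in 123 (50.4%). In the other 13 the leading arm was not the same in all libraries. The interval treats hairpins as independent draws, which clustered and related hairpins are not. It does not measure the spread between libraries. Of all mouse miRNA reads, 57.6% fell on 5p and 42.2% on 3p miRNAs. In 136 hairpins (55.7%) a single arm took at least 95% in each library. The share of the 5p arm had a median SD of 0.824 percentage points over the libraries, a value held down by the hairpins whose share lies close to 0% or 100%.

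Among the 244 hairpins, those of highest level used a single arm almost alone. miR-127 had 0.217%, 0.245% and 0.211% of its reads on the 5p arm in wild types 1, 2 and 3. miR-100 had 99.99% on the 5p arm in each library, with 5 reads of its 3p arm in wild type 2. miR-99b had 99.92% to 99.96% on the 5p arm and miR-22 0.0608% to 0.108%. Less abundant but more even was miR-9, whose 3p arm stood at 509.0 CPM beside 22002 CPM of the 5p arm (97.7% ± 0.323 on the 5p arm).

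Some hairpins kept both arms. In 34 of the 244, each arm held at least 25% in each library, and 19 of these had at least 100 CPM. The following hairpins are shown because both arms were abundant or because the leading arm differed between libraries. Mature arms are in capitals and the sequence is the RefSeq hairpin of build GRCm38.p6.
let-7d hairpin: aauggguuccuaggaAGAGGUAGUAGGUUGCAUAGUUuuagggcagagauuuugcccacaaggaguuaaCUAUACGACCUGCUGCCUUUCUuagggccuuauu
miR-221 hairpin: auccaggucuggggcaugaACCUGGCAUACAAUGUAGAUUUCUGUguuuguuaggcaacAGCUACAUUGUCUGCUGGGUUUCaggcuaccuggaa
miR-369 hairpin: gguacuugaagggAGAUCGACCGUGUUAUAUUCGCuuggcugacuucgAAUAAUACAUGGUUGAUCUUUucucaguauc
miR-872 hairpin: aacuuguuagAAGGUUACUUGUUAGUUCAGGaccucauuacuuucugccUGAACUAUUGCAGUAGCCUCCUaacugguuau
miR-431 hairpin: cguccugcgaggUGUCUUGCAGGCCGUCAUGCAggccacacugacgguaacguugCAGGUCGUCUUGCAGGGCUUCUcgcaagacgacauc

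miR-151, an intronic miRNA derived from a LINE2 repeat, was the most abundant of these. Its 5p arm held 48.8%, 50.4% and 46.5% of its reads, so neither arm led, at 5415 and 5745 CPM. let-7d had 69.8%, 72.4% and 74.3% on the 5p arm, and miR-330 73.7%, 73.0% and 72.7%. miR-221, which is linked to proliferation and vessels, had 31.7%, 34.7% and 34.7% on the 5p arm, so that its 3p arm led in each library. miR-369 stood at 52.6%, 61.5% and 61.5%, miR-708 between 25.2% and 29.5%, miR-666 at 70.0%, 67.4% and 71.3%, and miR-384, which shares the miR-30 seed, at 66.2%, 74.7% and 74.3%. Each of these apart from miR-151 had the same leading arm in all 3 libraries.

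In 6 hairpins of at least 100 CPM the leading arm changed from library to library: miR-151, miR-872, miR-431, miR-423, miR-376a and miR-145a. The 5p arm of miR-431, from the Rtl1-antisense group, held 39.4%, 53.9% and 30.1%. That of miR-872 held 48.6%, 66.4% and 65.9%. Among hairpins of at least 100 CPM, the widest spread was in one whose 5p arm led in each library. miR-1298, an intronic miRNA of the serotonin receptor gene Htr2c, had 87.8%, 62.6% and 87.5% on the 5p arm (SD 14.4 percentage points). In wild type 2 this share came from 672 reads of the 5p and 401 of the 3p arm.

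Arms also differed in their first base. Of 195 hairpins with a leading arm and both sequences, 103 leading arms (52.8%) began with U and 13 (6.67%) with G. Among the other arms of the same hairpins, 36 (18.5%) began with U and 44 (22.6%) with G. A or U began 149 leading arms (76.4%) and 95 other arms (48.7%).

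**Figure D3:**
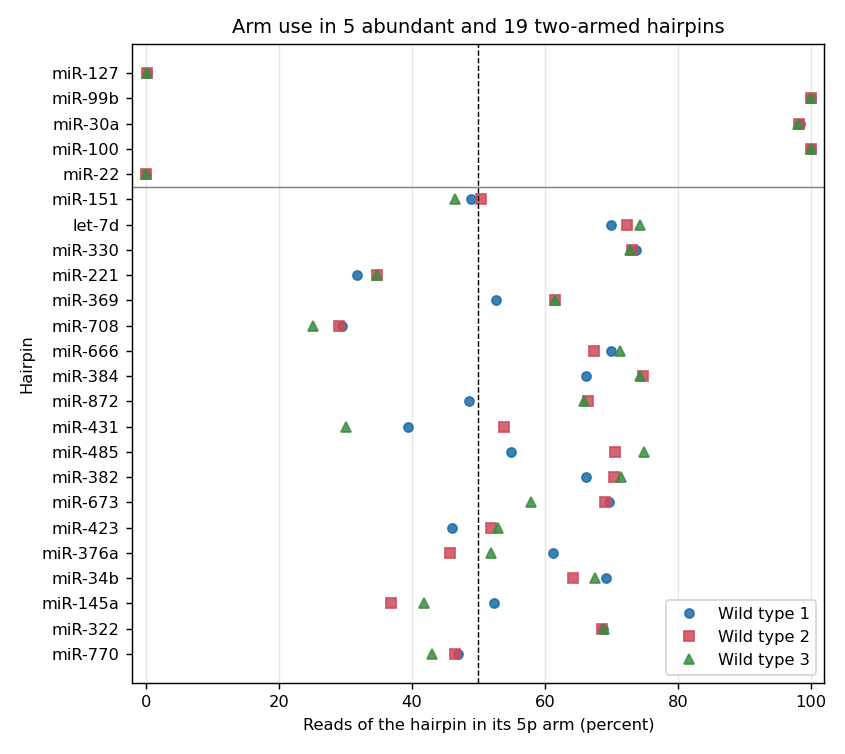
Percent of each hairpin's reads on its 5p arm (horizontal axis) in the 3 libraries. Above the grey line are the 5 most abundant of the 244 hairpins compared by arm, which leave out miR-181a. Below it are the 19 hairpins of at least 100 CPM that used both arms, and the dashed line marks 50%. The upper 5 lie at the edges in each library, while miR-431, miR-872 and miR-376a have symbols on both sides of 50%.

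The marker lists were set out by cell type. miRNAs of the choroid plexus and pigment epithelium were the most variable list of the resident epithelia. miR-204-5p, which lies in an intron of Trpm3 (chr19:22750610-22750631, plus strand) and is a hallmark of choroid plexus and retinal pigment epithelium, was at 8311, 2009 and 11775 CPM. Wild type 2 was the low library, 4.14-fold under the nearest of the others. miR-211-5p, from an intron of Trpm1 and with the same seed, was far lower at 3.34, 4.52 and 6.85 CPM. It rested on 9, 10 and 25 reads, too few to order wild types 1 and 2. miR-204-3p was at 5.19, 1.36 and 7.13 CPM, and miR-211-3p had 0 reads. Without wild type 2 the list's summed mean moved from 7375 to 10055 CPM.

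The next list holds miRNAs at Htr2c, a receptor gene highly expressed in choroid plexus, and most of its members were also lowest in wild type 2. miR-1298 and miR-448 lie in an intron of Htr2c in the annotation, while miR-1264-3p (chrX:147010655-147010676, plus strand) overlapped no annotated gene; it was at 57.5, 28.5 and 49.4 CPM. The sequences of these epithelial miRNAs show that miR-204-5p and miR-211-5p share a seed and that the arms of miR-1298 do not.
miR-204-5p: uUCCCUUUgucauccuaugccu
miR-211-5p: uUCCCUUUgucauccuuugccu
miR-1298-5p: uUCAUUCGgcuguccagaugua
miR-1298-3p: cAUCUGGGcaacugauugaacu
miR-448-3p: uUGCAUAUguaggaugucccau

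miR-1298-5p (chrX:147064918-147064939, plus strand, intron of Htr2c) was at 1874, 303.9 and 2136 CPM. miR-448-3p was at 235.4, 48.4 and 284.6 CPM, and miR-1912-3p at 28.5, 4.07 and 35.9 CPM. In these 3, wild type 2 lay at least 4.87-fold under each of the other libraries. miR-1298-3p, from the same hairpin as miR-1298-5p, was at 260.6, 181.3 and 304.6 CPM, and miR-764-3p at 29.7, 28.0 and 48.5 CPM. These members thus differed much less. Of 10 mature miRNAs of the list, 9 reached 1 CPM in each library.

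The multiciliated cell list, with the miR-34 and miR-449 genes that promote the formation of cilia, followed in part. miR-34c-5p was at 3006, 1174 and 3430 CPM, and miR-34b-5p at 147.9, 47.9 and 125.6 CPM, again lowest in wild type 2 (2.56-fold and 2.62-fold under the nearest other library). miR-34a-5p, a widely expressed p53 target, was at 112.3, 65.1 and 71.0 CPM. miR-449a-5p, by contrast, was at 18.53, 28.03 and 20.02 CPM and was highest in wild type 2. miR-449c-5p was at 0.741, 3.17 and 2.74 CPM, below the limit of 1.11 CPM that a count of 0 allows in wild type 1, and miR-449b, miR-449a-3p and miR-449c-3p had 0 reads.

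Neuronal miRNAs were the most abundant list on the mean, at 36471, 43867 and 26641 CPM, and 19 of 20 members reached 1 CPM in each library. miR-128-3p was at 10670, 16667 and 8795 CPM, miR-124-3p, the classic neuron miRNA, at 8763, 8256 and 5303 CPM, miR-138-5p at 5080, 4226 and 2904 CPM and miR-132-3p, which is induced by neuronal activity, at 3286, 4166 and 2674 CPM. Each of these 4 was lowest in wild type 3. The highest library was not the same for each: wild type 2 led for miR-128-3p and miR-132-3p, and wild type 1 for miR-124-3p and miR-138-5p. Wild type 3, lowest for these 4, was the highest library for miR-204-5p. The part of one list in the values of another was not tested.

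Progenitor and glial miRNAs, at 28588, 34839 and 30783 CPM, were above the neuronal list in wild type 3 alone. miR-9-5p has been given above, and miR-92b-3p was at 6993, 8668 and 11005 CPM. The oligodendrocyte list stood at 762.5, 607.2 and 1003 CPM, led by miR-219a-2-3p at 485.2, 371.2 and 655.6 CPM and miR-338-5p at 242.8, 216.1 and 316.4 CPM. miR-338-3p, the other arm of that hairpin, was at 22.4 ± 5.78 CPM, so the 5p arm held 92.01% ± 1.67.

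The summed erythroid, leukocyte and endothelial lists varied little between libraries, with CVs of 4.20%, 7.47% and 5.49%, while some of their members and the mural cell list (CV 26.2%) varied more. The erythroid list was at 3859, 4006 and 4196 CPM, almost all from the joined 5p entry of miR-486a and miR-486b (3858 ± 196.0 CPM), with miR-451a at 149.0, 107.2 and 95.1 CPM and miR-144-3p at 34.0 ± 4.29 CPM. The leukocyte and microglia list was at 814.4, 941.4 and 911.7 CPM. In it miR-150-5p, of lymphocytes, was at 314.0 ± 32.4 CPM and miR-142a-5p, of blood cells in general, at 231.4 ± 17.1 CPM. miR-146a-5p, an NF-kB target, was the least even of the members with a mean of at least 100 CPM. It was at 211.7, 404.7 and 363.6 CPM, lowest in wild type 1. miR-223-3p, of neutrophils, was near its limit at 4.08, 2.71 and 3.02 CPM. The endothelial miR-126a-3p was at 951.9, 880.8 and 980.8 CPM. The mural cell and fibroblast list was set by miR-143-3p at 15723, 15848 and 24270 CPM, highest in wild type 3, while miR-145a-5p, from the same cluster, was at only 65.7 ± 23.8 CPM.

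Other epithelia were represented mainly by miR-192-5p, of gut, liver and kidney, at 2396, 2178 and 2364 CPM. miR-31-5p was at 121.4 ± 13.4 CPM and miR-194-5p at 80.2 ± 8.24 CPM, while miR-205-5p, of stratified epithelia, was at 5.31 ± 0.329 CPM. The sensory miR-183 cluster was led by miR-182-5p at 177.6, 195.3 and 201.5 CPM. The miR-200 list summed to 93.8, 90.4 and 150.3 CPM, and its member miR-141-3p was at 14.5, 11.8 and 53.7 CPM, high in wild type 3 alone. miR-200b-3p, the most abundant member, was at 49.7, 40.7 and 55.1 CPM.

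The neuroendocrine and Hox lists had levels like those of the endothelial, leukocyte and oligodendrocyte lists, and the muscle, hepatocyte and pluripotent lists were near 0. The neuroendocrine list was at 492.6, 454.0 and 1403 CPM. In it miR-375-3p, of endocrine and pituitary cells, was at 284.3, 188.1 and 866.2 CPM and miR-7a-5p at 122.3, 160.5 and 368.0 CPM, both highest in wild type 3. The Hox list, a sign of hindbrain and spinal tissue and of the trunk, was at 775.5, 1039 and 1106 CPM, nearly all from miR-10b-5p (474.8, 725.3 and 766.6 CPM) and miR-10a-5p (315.2 ± 20.1 CPM); the miR-196 members stayed at or under 2.26 CPM in each library. Striated muscle miRNAs summed to 19.8 ± 0.538 CPM, and the muscle miR-1a-3p was at 0.371, 0.452 and 0.823 CPM, at or below the limit that a count of 0 allows. The hepatocyte miR-122-5p stood at 0.371, 0.904 and 1.10 CPM, near that limit. Pluripotent stem cell miRNAs summed to at most 0.741 CPM, and 25 of 28 had no read.

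**Figure D4:**
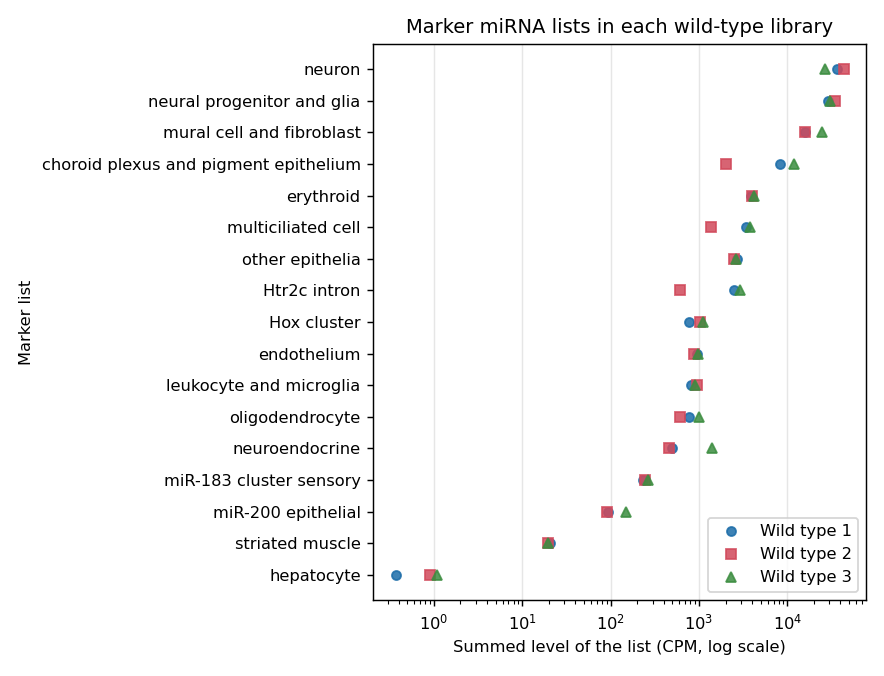
Summed level of each marker list (horizontal axis, CPM on a log scale) in the 3 libraries; the pluripotent list is left out because it was 0 in wild type 2. Wild type 2 lies apart on the low side for the choroid plexus, Htr2c and multiciliated lists, and wild type 3 lies apart on the high side for the neuroendocrine list.

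The spread between libraries was small for most abundant miRNAs. Of 204 with a mean of at least 100 CPM, which held 99.2% of the reads, 142 (69.6%) had a highest value under 1.5 times the lowest, 19 reached a ratio of 2 and 8 a ratio of 3. Their coefficient of variation (CV, SD divided by mean) had a median of 14.6%, against 2.65% from read counting alone, and 5 had a CV under the counting value. Over 464 miRNAs that passed edgeR's filter, the common biological CV was 24.4%, which includes technical variation between libraries.

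The steadiest were miR-103-3p, an intronic miRNA of the Pank genes (1843, 1874 and 1814 CPM, CV 1.62%), miR-346-5p (297.7, 298.4 and 306.8 CPM, CV 1.69%) and miR-25-3p, which lies within Mcm7 (566.0, 571.1 and 589.2 CPM, CV 2.12%). miR-369-3p, miR-101b-3p, miR-434-5p, miR-361-5p, miR-27a-3p, miR-181a-5p and miR-136-3p followed with CVs of up to 3.70%. miR-369-3p, miR-434-5p and miR-136-3p lie in the Dlk1-Dio3 domain, as do miR-758-3p and miR-431-5p among the least steady below. A CV over 3 libraries is itself imprecise, and an order among such low values is not meaningful.

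The 10 highest CVs ran from 43.6% to 82.2%. They belonged to miR-375-3p, miR-298-5p, miR-1298-5p, miR-204-5p, miR-448-3p, miR-758-3p, miR-7a-5p, miR-34b-5p, miR-34c-5p and miR-431-5p. In 5 of them (miR-1298-5p, miR-204-5p, miR-448-3p, miR-34b-5p and miR-34c-5p) wild type 2 was low. In 4 others wild type 3 was high: miR-375-3p, miR-7a-5p, miR-298-5p of the imprinted Gnas region (425.5, 605.4 and 1595 CPM) and miR-758-3p of the Dlk1-Dio3 domain (104.5, 74.6 and 242.4 CPM). miR-431-5p was high in wild type 2, at 138.6, 277.6 and 137.9 CPM.

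Counting miRNAs at least 1.5-fold apart from both other libraries gave the following. Of the 204, wild type 1 had 3 above and 4 below, wild type 2 had 5 above and 7 below, and wild type 3 had 10 above and 7 below. The 5 above in wild type 2 were miR-431-5p, miR-212-3p, miR-132-5p, miR-222-3p and miR-128-3p. Besides the epithelial and ciliary miRNAs, miR-135a-5p (123.4, 64.7 and 162.9 CPM) and miR-375-3p were among those below in it. In wild type 3, miR-221-3p (787.3, 882.2 and 415.4 CPM), miR-139-5p (942.3, 851.9 and 533.6 CPM) and miR-124-3p were among those below. Wild type 3 had the most such miRNAs. It was also the deepest library, and the part of depth in these counts was not tested.

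**Figure D5:**
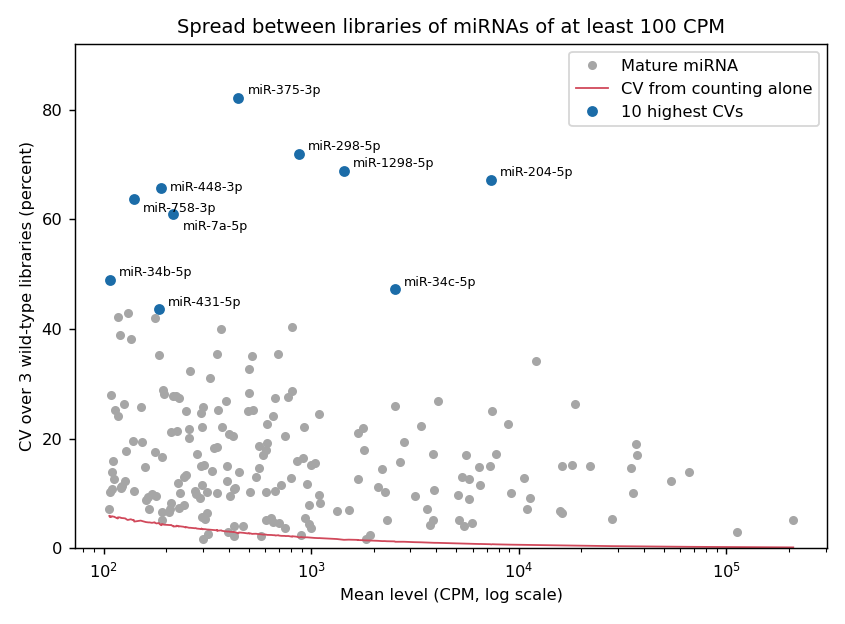
CV over the 3 libraries (vertical axis, percent) against mean level (horizontal axis, CPM on a log scale) for the 204 miRNAs of at least 100 CPM; the red line is the CV that counting alone gives. Most points lie above the line and under 40%, and the 10 named miRNAs reach 43.6% to 82.2%.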

How the data were processed

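Small RNA from lateral ventricles and choroid plexus was sequenced as Illumina TruSeq small RNA libraries from phenol and chloroform extracts, per the labels' protocols. Per the submitters' processing notes, bcl2fastq 2.17.1.14, DESeq2 and build mm10 were used, in roles those notes leave out; aligner and counter: not given in the sources used here. What the authors deposited is 1 raw count per small RNA name and library. The closing lines for unassigned reads hold 0. Only the 3 wild-type tables were read. The kit carries no molecular identifiers.

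Counts of names starting mmu- were scaled to CPM of their sum. Seed families used RefSeq mature sequences matched by name (1618 of 1914). Positions came from GRCm38.p6 and GENCODE M21. The common biological CV came from edgeR 4.0.16 (TMM, filterByExpr with minimum count 10, intercept only), tested on simulated data. Pairwise chi-square per degree of freedom was 93.3 to 149.2 over miRNAs with at least 20 reads, so no library repeated another. Named miRNAs are the 10 most abundant, family members over 5%, up to 4 per marker list, the hairpins using both arms, and the 10 highest and lowest CVs; further list members, and miRNAs at least 1.5-fold apart in a library, were named after their values were seen. Members and lists were chosen with earlier results of these data known. Python 3.11.15, pandas 2.3.3 and scipy 1.17.1 were used.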

Additional observations from a re-analysis of the deposited data

Results flagged for a closer look

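A group of 3 libraries is too small for a check of outlying libraries. Reads fell on names outside the mouse miRNAs, in each library above the 3 reads that a count of 0 allows; no control sample exists for them. As a share of all assigned reads, mouse piRNA names took 0.880% ± 0.0806 (SD, n = 3), other small RNA genes 0.137% ± 0.0125, snoRNA and scaRNA names 0.123% ± 0.0174, predicted mouse miRNAs 0.0179% ± 0.00437, rRNA genes 0.0137% ± 0.00480 and miRNAs of other species 0.00695% ± 0.000501. In the piRNA class a single entry, mmu_piR_005109, held 11454 of 21483 reads in wild type 1, 10973 of 20925 in wild type 2 and 20681 of 33926 in wild type 3.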

How the results depend on the processing

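No paired analysis was possible because the results come from a single genotype with no comparison. The number of hairpins that used both arms depended on the limits chosen: 34 at the settings of the text, 19 with hairpins of at least 100 CPM and 61 with a minor arm of 10% or more. The share of the 10 largest seed families was 72.5%, and 74.2% with members absent from the sequence table added by name, a choice made after seeing the data. The number of miRNAs of at least 1 CPM was 565, 554 after thinning to 2211619 reads, and 579 to 589 when each library was left out. The common biological CV was 24.4%, 21.0% to 25.7% when each library was left out, and 23.2% to 25.7% over the 4 other settings. The mean of 3 values cannot move by more than its SD when 1 is left out, so that alternative says little about the listed levels. Summing names of all species added 19 reads in all. Depth limits what is said of miRNAs near 1 CPM.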

Other observations

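Some arms had no read in any of the 3 libraries beside an abundant partner from the same hairpin. miR-126a-5p had 0 reads while miR-126a-3p stood at 937.8 ± 51.5 CPM (SD, n = 3). miR-101b-5p had 0 reads beside miR-101b-3p at 894.4 ± 20.9 CPM, miR-146a-3p beside miR-146a-5p at 326.6 ± 101.7 CPM, and miR-10a-3p beside miR-10a-5p at 315.2 ± 20.1 CPM. miR-219a-5p, an oligodendrocyte miRNA, also had 0 reads although miR-219a-2-3p stood at 504.0 CPM. The counter and its treatment of reads that match several entries are not given. These counts of 0 therefore do not show that an arm was absent from the tissue, and loss in counting was not tested.

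The leading arm of some cell type markers was the 5p arm by a wide margin. miR-142a-5p exceeded miR-142a-3p 32.8-fold, miR-338-5p exceeded miR-338-3p 11.5-fold, and miR-212-5p exceeded miR-212-3p 5.04-fold on their mean CPM, and each did so in all 3 libraries. In the neighbouring miR-132 hairpin the 3p arm led, 9.15-fold. These are ratios of counted reads, and the part of the unknown counting method in them was not tested.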
